A study of Mus musculus with 2 samples.

Results

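The genes described here encode the enzymes and regulators of sterol and fatty acid synthesis, together with a few sterol transporters whose expression is known to follow cellular sterol. They were taken as a list of 33 gene symbols, and every probe set whose only gene symbol in the platform annotation was on the list was used. Probe sets were found for 32 of the 33 genes, 75 probe sets in all, out of 18193 genes with such a probe set on the array. Acat2, an acetyl-CoA acetyltransferase gene, was not analysed here except in the promoter search.

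RNA came from vascular cells that had been flow-sorted out of the right lung lobes of old and of young C57BL/6J mice, all of which had lost the left lobe by pneumonectomy, an operation after which the remaining lung regrows. There was 1 array for old and 1 array for young mice, so no difference below has a replicate check or a test, and old and young stand for these arrays as labelled. The ages, the days after surgery, how the cells were stained for sorting and how many mice went into an array are not stated in the labels, and lungs without surgery were not analysed here. Signals are MAS5 intensities per probe set, scaled so that the median log2 ratio of well-measured probe sets is 0. A log2 ratio is always old minus young. The floor, the higher of both arrays' median signals after scaling, was 73.7, and a value under it was treated as having no order. Because a bulk array reads all sorted cells together, fewer cells of a type and less RNA per cell cannot be told apart in any value. Liver sinusoidal endothelial markers summed to 180781 on the old array and 12615 on the young, and hepatocyte markers to 15612 and 431. These lung samples thus carried liver-type marker signal, mainly on the old array, whose origin was not tested.

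Cholesterol is built from acetyl-CoA through mevalonate, isoprenoid diphosphates, squalene and lanosterol. Sterol regulatory element-binding proteins (SREBPs) switch on most of these enzymes, and Scap and the Insig proteins hold the SREBPs in the endoplasmic reticulum while sterols are plentiful. Oxysterols activate the liver X receptors (LXRs), which are known to induce efflux pumps, the gene Srebf1 and the desaturase gene Scd1. Growing cells draw on both synthetic routes for membrane.

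All 32 genes reached the floor on each array, and 26 of them had a lower signal on the old array. By a size rule of 2-fold, 14 genes (43.8%) were lower on the old array and 3 (9.38%) were higher, while 15 were within 2-fold. Over all 12105 genes above the floor on at least 1 array, 11.3% were 2-fold or more lower on the old array and 16.0% were higher. Among the 10004 genes that, like all 32, reached it on both arrays, these shares were 10.6% and 11.7%. The median log2 ratio of the 32 genes was -0.91, beside 0.03 over the 12105 genes and -0.02 over the 10004 genes. Of the 14 genes lower on the old array, 11 were among the 16 sterol synthesis genes, whose median was -1.53. Of the 8 fatty acid genes, 6 had a lower and 2 a higher signal on the old array.

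**Figure D1:**
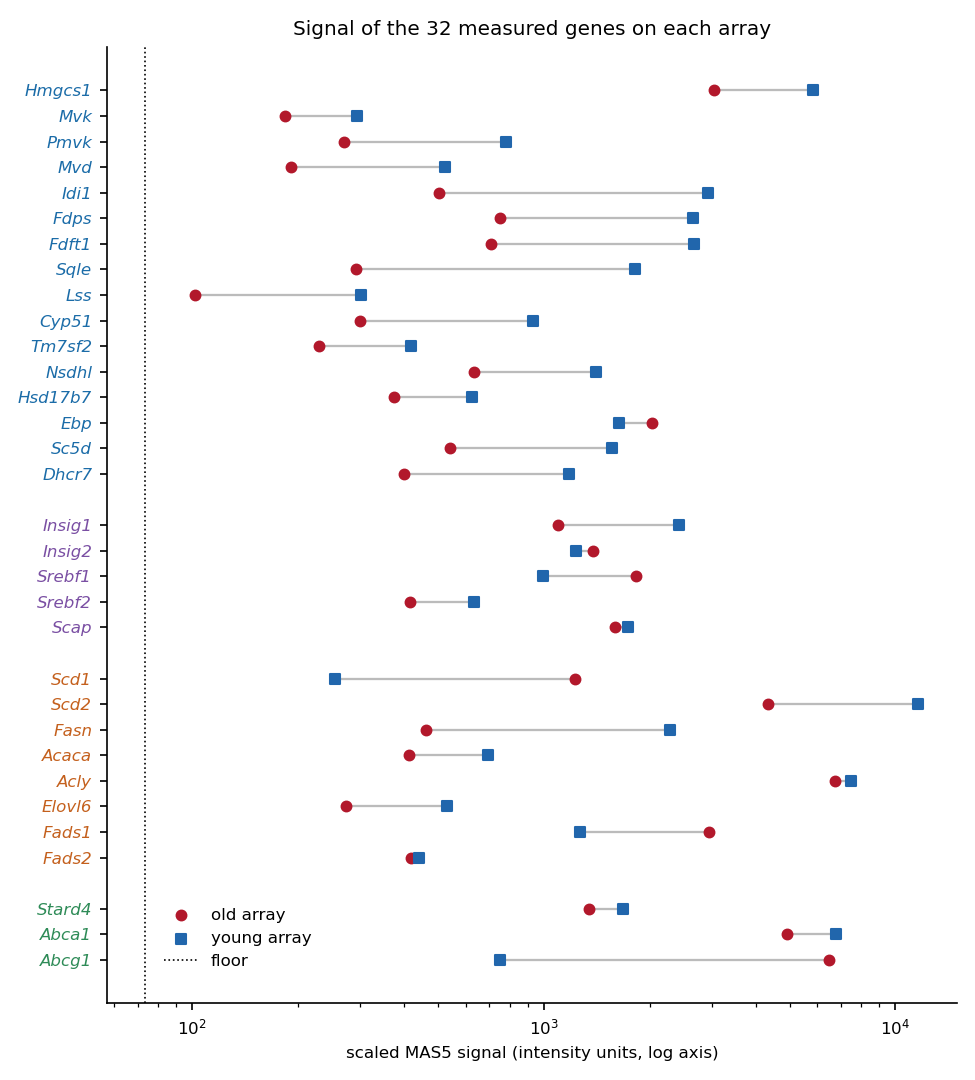
Scaled MAS5 signal (log axis) of the 32 measured genes, with the old array as red circles, the young array as blue squares and the floor of 73.7 as a dotted line. The top 16 rows are sterol synthesis genes in pathway order, of which all but Ebp have the old point to the left, and the gene names of SREBP control (purple), fatty acid (orange) and transport genes (green) follow.

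The 6 measured genes from HMG-CoA synthase to farnesyl diphosphate synthase were all lower on the old array, 4 of them by 2-fold or more, with a median of -1.49. Hmgcs1, which makes HMG-CoA, had a signal of 3040 units on the old array, against 5844 on the young array, a log2 ratio of -0.94 that falls just short of 2-fold. The mevalonate kinase gene Mvk had 183 on the old array and 295 on the young, a ratio of -0.69. Pmvk, the phosphomevalonate kinase gene, had 271 on the old array, against 781 on the young, and was 2.88-fold lower. Mvd, whose enzyme removes carbon dioxide to give isopentenyl diphosphate, had 191 on the old array and 522 on the young, and was 2.73-fold lower. The largest difference in this stretch was that of Idi1, the isomerase gene, with 503 on the old array, against 2939 on the young, 5.84-fold lower. Fdps, which builds farnesyl diphosphate, had 753 on the old array, against 2658 on the young, and was 3.53-fold lower.

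The 3 genes that turn farnesyl diphosphate into lanosterol were all more than 2-fold lower on the old array, with a median of -1.93. Fdft1, the squalene synthase gene, had 706 on the old array and 2679 on the young, 3.80-fold lower. Sqle, the epoxidase that is a control point of the pathway, had 293 on the old array, against 1811 on the young, and was 6.19-fold lower, the lowest of the 32 reported ratios at -2.63. The order is not firm, since the second Idi1 probe set was lower at -3.10, and with the floor at the 75 percentile of signals Sqle had -1.89, behind Idi1 (-2.55), Fasn (-2.22) and Fdft1 (-1.93). Of the 12105 genes, 1.88% of the 12105 genes had a lower ratio than Sqle. Lss, which closes the sterol rings, had 102 on the old array and 302 on the young, 2.97-fold lower, with an old signal close to the floor.

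Of the 7 genes that convert lanosterol to cholesterol, 6 were lower on the old array, 4 of them by 2-fold or more, and the median was -1.16. Cyp51, the lanosterol demethylase gene, had 299 on the old array and 934 on the young, 3.12-fold lower. The reductase gene Dhcr7, which acts last in one branch, had 400.4 on the old array, against 1176 on the young, 2.94-fold lower. The desaturase gene Sc5d was close to it, with 542 on the old array and 1566 on the young, 2.89-fold lower. Nsdhl, a C4-demethylation dehydrogenase gene, had 633 on the old array and 1410 on the young, 2.23-fold lower. Within 2-fold was Hsd17b7, a ketosteroid reductase gene of the same demethylation, with 375 on the old array, against 626 on the young (-0.74). So was the sterol reductase gene Tm7sf2, with 230.2 on the old array, against 420.3 on the young (-0.87). The exception was Ebp, the sterol isomerase gene, with 2027 on the old array and 1635 on the young, a ratio of 0.31.

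The probe sets of one gene were the only repeated measurement on these arrays. They describe probe behaviour and not the mice, and over 4514 genes with several probe sets past the floor on both arrays their log2 ratios had an SD of 0.42. Of the 75 probe sets of the listed genes, 56 reached the floor on both arrays, 7 on 1 array only and 12 on neither. Of the 63 above it on at least 1 array, 27 were 2-fold or more lower on the old array and 4 were higher, beside 10.6% and 14.2% of the 21644 such probe sets of all genes. In 16 of 18 genes with several probe sets past the floor on both arrays, the probe sets had the same sign, and so did all 8 of these that passed 2-fold, while the other 9 genes past 2-fold rested on 1 such probe set.

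**Figure D2:**
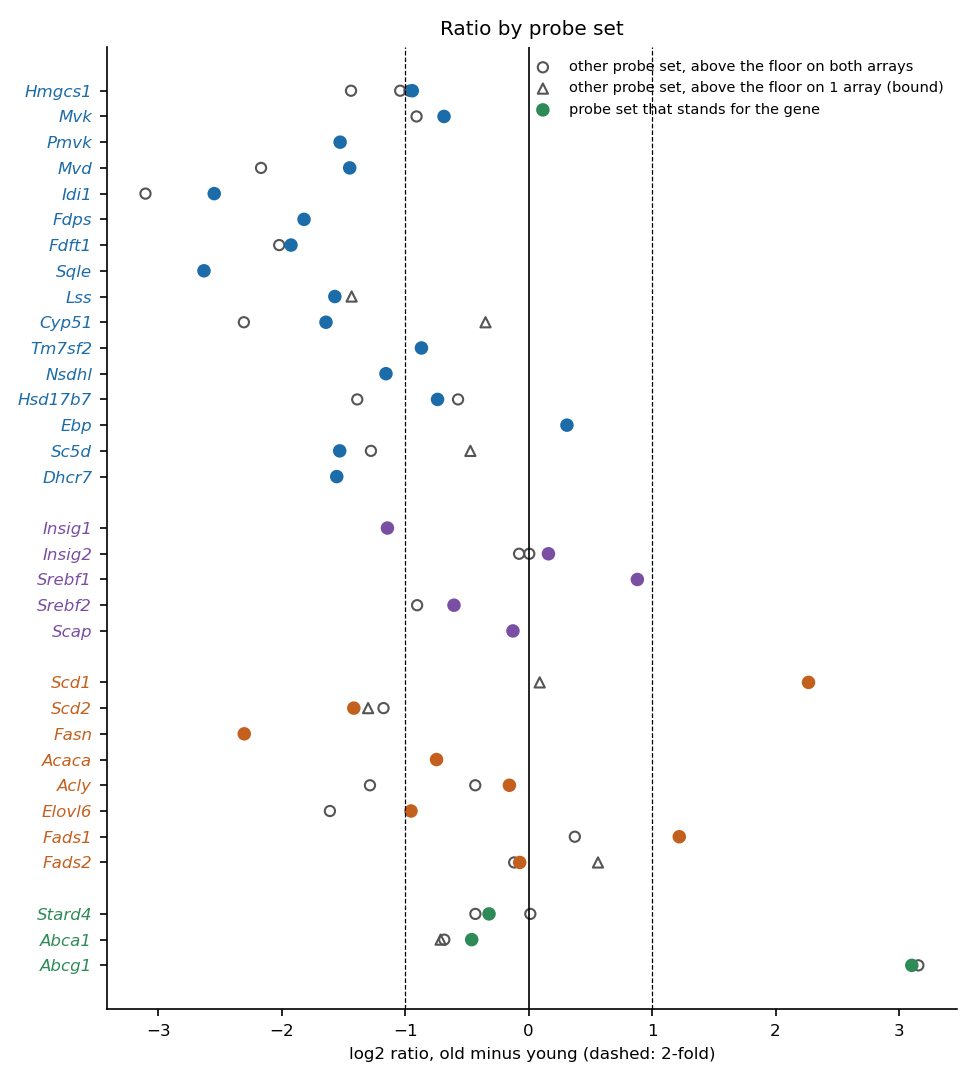
Log2 ratio, old minus young, of each probe set above the floor on at least 1 array, by gene in the same order; filled points stand for the gene, open circles are its other probe sets, triangles are ratios against the floor and dashed lines mark 2-fold. The second Idi1 probe set lies at -3.10, and those of Acly spread from -1.29 to -0.16.

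The spread between probe sets was widest for Acly, at 1.13 log2 units, from -1.29 to -0.16. Idi1 had -3.10 and -2.55, Cyp51 -2.31 and -1.64, and Mvd -2.17 and -1.45, so that the other probe set past the floor on both arrays showed the larger difference in each. The values of the sterol synthesis genes Fdft1, Lss and Hsd17b7 came from probe sets of kinds that can match several transcripts, and without these kinds the ratios were -2.02 for Fdft1, -0.57 for Hsd17b7 and -1.43 for Lss, that of Lss computed against the floor. For Hmgcs1 the 4 probe sets ran from -1.44 to -0.94, on both sides of the 2-fold line, and it passed 2-fold under 5 of the 9 other settings tried. With the floor at the 75 percentile of signals, Cyp51 (-0.94), Mvd (-0.10) and Pmvk (-0.68) were within 2-fold, and sterol synthesis had 7 of 13 measured genes past it. The 2 genes with mixed signs were Insig2 and Stard4, all of whose values were within 2-fold.

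Among the genes that control the SREBPs, 1 of 5 (20%) passed 2-fold, on the lower side, beside 11.3% of all 12105 genes. Insig1, itself a well-known SREBP target as well as a brake on SREBP transport, had 1095 on the old array, against 2420 on the young, 2.21-fold lower. Its paralog Insig2 had 1384 on the old array and 1238 on the young, and its probe sets lay between -0.08 and 0.16. Scap, the escort protein gene, had 1594 on the old array and 1740 on the young, a ratio of -0.13. The 2 SREBP genes had opposite signs, neither past 2-fold. Srebf2, which chiefly serves sterol synthesis, had 417 on the old array, against 634 on the young (-0.60), with a second probe set at -0.90. Srebf1, which chiefly serves fatty acid synthesis and is an LXR target, had 1831 on the old array and 994 on the young (0.88).

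Promoter sequences, from RefSeq on the GRCm38.p6 build, were given for 25 of the 33 genes. The 250 bases before each annotated start were searched on both strands for the sterol response element TCACNCCAC (N being any base), the NF-Y box CCAAT and the GC box GGGCGG, the last 2 being bound by factors known to act together with SREBPs. Shown are Hmgcs1, the only 1 of these 25 genes with an exact sterol response element in the window, and Idi1, Insig1 and Fasn, which were lower on the old array at 3 levels of the network, the isoprenoid steps, the feedback on SREBPs and fatty acid synthesis. Capitals mark the matches, and each sequence reads 5′ to 3′ toward the start.
Hmgcs1: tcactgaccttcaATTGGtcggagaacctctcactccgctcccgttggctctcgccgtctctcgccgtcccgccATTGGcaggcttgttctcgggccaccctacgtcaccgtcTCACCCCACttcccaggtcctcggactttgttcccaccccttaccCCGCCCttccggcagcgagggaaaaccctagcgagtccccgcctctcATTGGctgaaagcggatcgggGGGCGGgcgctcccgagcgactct
Idi1: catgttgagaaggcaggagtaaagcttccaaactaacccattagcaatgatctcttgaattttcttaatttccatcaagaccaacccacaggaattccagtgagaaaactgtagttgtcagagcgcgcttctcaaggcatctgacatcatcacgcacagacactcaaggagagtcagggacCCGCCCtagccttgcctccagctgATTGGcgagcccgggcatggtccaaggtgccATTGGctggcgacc
Insig1: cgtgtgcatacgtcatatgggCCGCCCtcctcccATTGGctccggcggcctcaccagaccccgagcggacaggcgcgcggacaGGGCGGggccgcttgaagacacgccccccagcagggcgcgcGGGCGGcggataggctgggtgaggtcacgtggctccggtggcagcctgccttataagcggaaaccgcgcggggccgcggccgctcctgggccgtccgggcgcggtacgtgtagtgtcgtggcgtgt
Fasn: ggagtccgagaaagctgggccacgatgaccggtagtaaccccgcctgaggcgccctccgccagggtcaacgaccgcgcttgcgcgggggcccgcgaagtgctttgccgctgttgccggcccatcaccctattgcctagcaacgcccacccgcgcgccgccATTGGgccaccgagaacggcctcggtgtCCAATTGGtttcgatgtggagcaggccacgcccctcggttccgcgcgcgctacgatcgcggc

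The Hmgcs1 window is chr13:119690101-119690350 on the plus strand, that of Idi1 chr13:8885356-8885605 (plus), that of Insig1 chr5:28071162-28071411 (plus) and that of Fasn chr11:120824548-120824797 (minus). In Hmgcs1 the sterol response element began 137 bases before the start, in a window that also held 3 NF-Y boxes and 2 GC boxes. Idi1 held 2 NF-Y boxes and 1 GC box. Insig1 held 1 NF-Y box and 3 GC boxes. Fasn held 3 NF-Y boxes, of which a pair overlapped on opposite strands.

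All 10 genes with a promoter sequence that were 2-fold or more lower on the old array held an NF-Y box (Idi1, Lss, Cyp51, Dhcr7, Sc5d, Mvd, Pmvk, Nsdhl, Insig1 and Fasn), as did 8 of the other 15 listed genes. Those 8 were Hmgcs1, Mvk, Ebp, Hsd17b7, Tm7sf2, Insig2, Srebf1 and Srebf2, all within 2-fold. Every measured sterol synthesis gene with a promoter sequence thus held the box, past 2-fold or not. In Dhcr7, Pmvk, Insig2 and Srebf1 not every window held it. The other 15 include Acat2, which had no signal value here. Acat2 is among those with a GC box and with a 1-mismatch element. A CCAAT was present in 37.5% of the 27025 genes with promoters in the table and in 40.2% of the 9778 of them that were measured here. A GC box was present in 8 of the 10 genes and in 13 of the other 15, beside 35.4% of all and 63.3% of measured genes. The exact sterol response element was in 0 of the 10 and in 1 of the other 15, beside 1.22% of all genes, and with 1 mismatch allowed it was in 4 and in 6, beside 23.0% of all and 25.6% of measured genes. A match describes letters and not binding, and genes with several annotated starts had more than 1 window.

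Fatty acid synthesis and desaturation genes did not all share a direction, with 6 of 8 lower on the old array and 2 higher. By the 2-fold rule 2 of the 8 (25%) were lower, 2 (25%) were higher and 4 were within it, with a median of -0.45. Over all 12105 genes these shares were 11.3% lower and 16.0% higher. Fasn, the fatty acid synthase gene, had 461 on the old array, against 2277 on the young, 4.94-fold lower, by 1 probe set above the floor. The enzymes that supply it differed less. Acaca, which makes malonyl-CoA, had 413 on the old array and 693 on the young (-0.75), and Acly, which makes cytosolic acetyl-CoA from citrate, had 6725 on the old array, against 7492 on the young (-0.16). Elovl6, an elongase gene, had 273 on the old array and 529 on the young (-0.95), its second probe set had -1.61, and with the floor at the 75 percentile its ratio was -0.11.

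The stearoyl-CoA desaturase genes Scd1 and Scd2, close paralogs that place the first double bond in saturated fatty acids, differed in opposite directions. Scd1 had 1230 on the old array, against 255 on the young, 4.81-fold higher. Scd2 had 4351 on the old array, against 11614 on the young, 2.67-fold lower, and its other probe set above the floor on both arrays had -1.18. A second Scd1 probe set had 78.4 on the old array, just over the floor, and was under it on the young, which gives no more than a bound of 0.09. Scd1 had 1.18 as the mean over both probe sets and 1.33 with the floor at the 75 percentile, each still past 2-fold. Of the desaturase genes for polyunsaturated fatty acids, Fads1 had 2957 on the old array, against 1269 on the young, 2.33-fold higher, although its dimmer probe set had 0.37 and the mean of both, 0.80, was within 2-fold. Fads2 had 420.2 on the old array and 442 on the young (-0.07).

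The efflux and transport genes were led by Abcg1, a cholesterol efflux pump and LXR target, with 6462 on the old array, against 752 on the young. This was 8.60-fold higher, the largest of the 32 reported ratios in either direction, and its probe sets had 3.10 and 3.16. The second Idi1 probe set, at -3.10, was of like size in the other direction. Of the 12105 genes, 3.54% had a higher ratio. Abca1, the pump that loads apolipoprotein A-I and also an LXR target, had 4912 on the old array and 6763 on the young (-0.46). Stard4, a cytosolic sterol carrier induced by SREBPs, had 1344 on the old array and 1680 on the young (-0.32). The LXR targets Abcg1 and Abca1 were thus not on the same side of 0. Scd1 (2.27) and Srebf1 (0.88), and the LXR targets Mylip (3.50) and Apoe (4.95) described below, lay on the side of Abcg1. The part of LXR activity in these values was not tested.

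**Figure D3:**
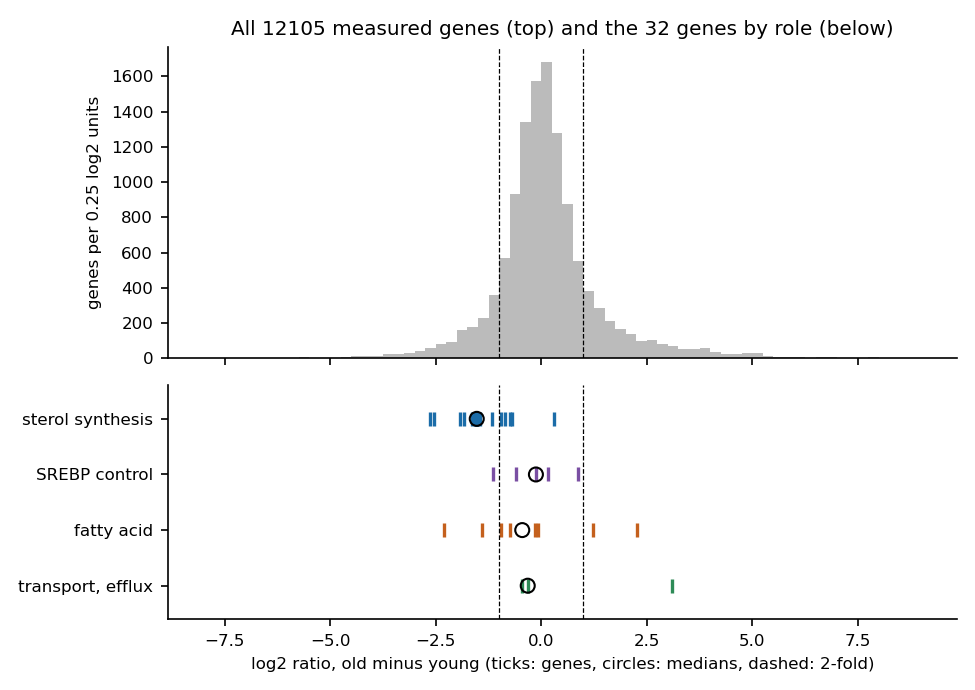
Histogram of the log2 ratio, old minus young, of all 12105 measured genes (top, counts per bin of 0.25) and the same ratio for each of the 32 genes by role (ticks, with medians as circles and 2-fold as dashed lines). The sterol synthesis median of -1.53 lies left of the 2-fold line, and the SREBP control (-0.13), fatty acid (-0.45) and transport (-0.32) medians lie within it.

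Other genes of sterol and lipid metabolism were set beside these in lists. Over all 12105 genes, 11.3% were 2-fold or more lower on the old array and 16.0% were higher. These shares apply beside the counts of each list here and of each marker list below. Of 9 other sterol and isoprenoid genes measured, 2 (22.2%) were 2-fold or more lower on the old array and 0 were higher (median -0.54). Msmo1, a C4-demethylation oxidase gene that acts after Cyp51, had 883 on the old array, against 3024 on the young, 3.42-fold lower. The farnesyltransferase subunit gene Fntb was 2.32-fold lower. Lbr, a nuclear membrane protein with the same reductase activity as Tm7sf2, had a ratio of 0.92, and Ggps1, which makes geranylgeranyl diphosphate, -0.84 with probe sets up to 0.03.

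Of 9 further genes of SREBP and LXR control, 2 were higher on the old array by at least 2-fold and 0 were lower (median -0.07). These were Mylip, an LXR-induced ubiquitin ligase for lipoprotein receptors, 11.3-fold higher with 14271 on the old array, against 1260 on the young, and Nr1h3, which encodes LXR alpha, at least 3.90-fold higher, being below the floor on the young array. Rnf145 (0.71) and Mbtps2, a protease that releases SREBPs (-0.54), were within 2-fold. Mlxipl was below the floor on both arrays.

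Among 18 measured genes of sterol transport, storage and oxysterol formation, 10 (55.6%) were higher on the old array by at least 2-fold and 2 (11.1%) were lower (median 1.21). Apoe, an apolipoprotein gene and LXR target, had 22599 on the old array, against 730 on the young, 31.0-fold higher. Ch25h, which makes an oxysterol that restrains SREBPs, was at least 20.0-fold higher and Lrp1, a lipoprotein receptor gene, at least 9.59-fold higher, both being below the floor on the young array. Vldlr, another lipoprotein receptor gene, was the opposite, with 185 on the old array and 3205 on the young, 17.4-fold lower.

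Further fatty acid synthesis and activation genes were mostly within 2-fold, with 1 of 18 (5.56%) higher on the old array and 3 (16.7%) lower (median -0.16). Thrsp, a regulator of lipogenesis, was 5.31-fold higher, while the elongase gene Elovl7 was 4.59-fold lower, the malic enzyme gene Me1, a source of NADPH, 3.21-fold lower and the mitochondrial synthase gene Oxsm 2.46-fold lower. Acss1 and Elovl3 were below the floor on both arrays. Of 12 triglyceride and phospholipid synthesis genes, 1 (8.33%) was lower and 0 were higher by 2-fold (median -0.26). The choline kinase gene Chka was 4.24-fold lower, with Pcyt1a (-0.71), Dgat2 (0.70) and Agpat2 (0.69) next in size. Of 12 measured fatty acid oxidation genes, 0 were lower and 1 (8.33%) was higher (median -0.34). That gene was Ehhadh, a peroxisomal gene, at least 2.20-fold higher, with Acaa2 (0.82), Acads (0.62) and Slc25a20 (-0.53) next. Ppara was below the floor on both arrays.

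**Figure D4:**
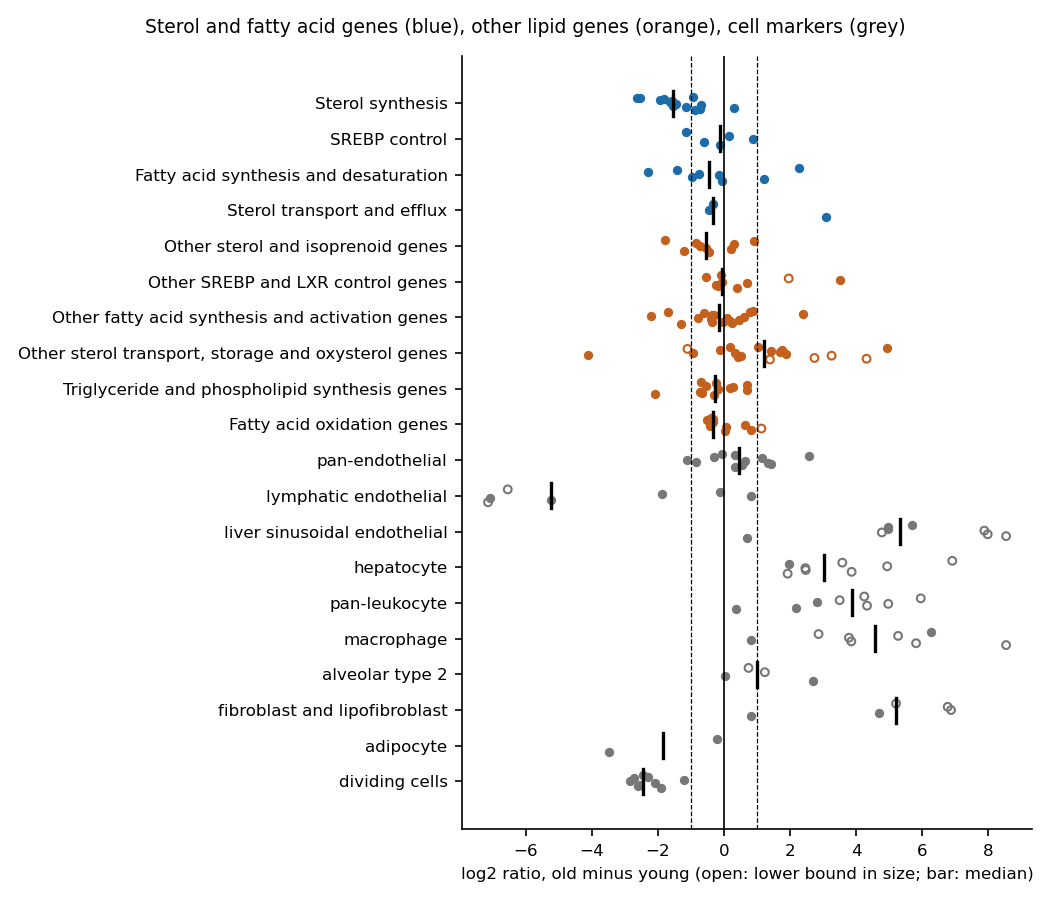
Log2 ratio, old minus young, for each measured gene of the sterol and fatty acid genes by role (blue), of the other lipid gene lists (orange) and of the cell marker lists (grey); open points are ratios against the floor, bars are medians and dashed lines mark 2-fold. Sterol synthesis (-1.53), dividing-cell markers (-2.46), lymphatic endothelial markers (-5.23) and the 2 measured adipocyte markers (-1.83) have medians below -1, while sterol transport, storage and oxysterol genes (1.21) lie on the opposite side. The adipocyte median comes from Pparg (-3.47) and Fabp4 (-0.20), so that only Pparg was past 2-fold.

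Markers of dividing cells and most of those of lymphatic endothelium lay on the same side as the sterol synthesis genes, and markers of several other cell types lay on the side of Abcg1, Scd1, Apoe and Mylip, with counts by the 2-fold rule throughout. All 12 pan-endothelial markers, Eng, Egfl7 and Kdr among them, were above the floor on both arrays (4 higher and 1 lower on the old array, summed signal 137727 on the old and 87219 on the young). All 9 dividing-cell markers, Ube2c, Top2a and Mki67 among them, were 2-fold or more lower on the old array, with a summed signal of 2331 there and 11521 on the young. Lymphatic endothelial markers had 5 of 7 lower and 0 higher on the old array, with a median of -5.23. Nts was at least 141-fold and Prox1 at least 93.4-fold lower, both being below the floor on the old array, Mmrn1 was 135-fold, Reln 37.6-fold and Pdpn 3.68-fold lower, while Flt4 (0.81) and Lyve1 (-0.11) were within 2-fold. The summed signal, 35086 on the old array and 64662 on the young, was mostly Flt4 and Lyve1 on the old array, with 18035 and 14902. Macrophage markers (Mrc1, Csf1r, Lyz2) had 7 of 8 higher on the old array and sums of 43688 on the old and 625 on the young, and pan-leukocyte markers (Fcer1g, Tyrobp, Lcp1) 7 of 8, with 14235 on the old and 1798 on the young. The exceptions were Cd68 (0.83), with 377 of the young macrophage units, and Lcp1 (0.37), with 1391 of the young pan-leukocyte units. Liver sinusoidal endothelial markers (Clec4g, Fcgr2b, Mrc1) had 7 of 8 higher and sums of 180781 on the old array and 12615 on the young, and hepatocyte markers (Alb, Ttr, Apoa2) 8 of 8, with 15612 on the old and 431 on the young. Stab1, the sinusoidal exception (0.69), gave 9881 of the young sinusoidal units. Mrc1 stands in the macrophage and the sinusoidal list. Fibroblast markers (Col3a1, Col1a2, Plin2) had 4 of 5 higher, with sums of 28912 on the old array and 4119 on the young, and Pdgfra, Tcf21 and Fgf10 below the floor on both. Plin2, the exception (0.81), gave 3808 of the young fibroblast units. Alveolar type 2 markers (Abca3, Etv5, Napsa) had 2 of 4 higher, with sums of 2857 on the old and 2149 on the young, and Sftpc, Sftpa1 and Slc34a2 below the floor on both arrays. Abca3 (0.02) was within 2-fold and gave 1943 of the old and 1918 of the young alveolar units. Adipocyte markers (Fabp4, Pparg) had 1 of 2 lower, with sums of 18404 on the old and 22131 on the young, and Adipoq, Cidec, Lep and Retn were below the floor on both. Pparg had -3.47, while Fabp4 (-0.20) gave 18209 of the old and 20863 of the young adipocyte units. Hepatocytes and macrophages are themselves known to express sterol, desaturase and efflux genes. The part of cell composition, liver sinusoidal endothelial signal included, or of division in the ratios above was not tested. RNA integrity can be read from control probe sets at both ends of a transcript, whose 3′ over 5′ ratio for Actb was 1.32 in the old sample and 1.20 in the young, and for Gapdh 0.718 (old) and 0.806 (young).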

How the data were processed

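One Affymetrix array per group was used, old and young. The deposited table holds linear MAS5 intensity values, 1 per probe set, made with GCOS 1.4 and MAS5 per the submitters' processing notes. Without the highest and lowest 2% of values, both arrays had a mean of 500.003. Probe-level signals and detection calls were not used here. Precision is limited by having 1 array per group.

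Of 45101 probe sets, 64 controls were left out. Genes were named by the platform annotation where a probe set had 1 symbol, updated through Entrez identifiers. Signals were multiplied by 1.05 (old) and 0.956 (young) so that the median log2 ratio of probe sets above both arrays' medians was 0. The probe set of highest mean log2 signal stood for the gene. Where a gene was below the floor on 1 array, its fold is a lower bound computed with the floor. Genes were counted by a 2-fold rule, since no test was possible. The members and gene lists were chosen with earlier results of these data known, and the grouping by pathway step and the search with 1 mismatch were added after values were seen. All members are named. Of each other lipid list the 4 genes of largest absolute ratio are named, and of each marker list up to 3 of highest signal. Also named are all measured lymphatic endothelial markers, list genes below the floor on both arrays and some markers within 2-fold. The procedure was run on simulated data with fold changes placed only in genes well above the floor. That check therefore does not cover genes near the floor. Alternatives covered scaling, the floor and the choice of probe sets. Calculations ran in Python 3.11.15 with pandas 2.3.3, numpy 2.4.6, statsmodels 0.14.6 and scipy 1.17.1, and figures in matplotlib 3.10.9.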

Additional observations from a re-analysis of the deposited data

How the results depend on the processing

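The settings tried were no scaling (values as deposited), trimmed means made equal, quantile normalization, a loess fit with span 0.4, a lower and a higher floor (percentiles 25 and 75), the mean over all probe sets of a gene, no _x_at or _s_at probe sets, and an offset of 0.5 times the floor in place of the floor. Over these and the reported setting, the number of the listed genes 2-fold or more lower on the old array ranged from 10 to 16 and the number higher from 2 to 3. The median log2 ratio ranged from -1.04 to -0.48 over the listed genes, from -1.66 to -1.16 over sterol synthesis genes and from -0.69 to -0.16 over fatty acid genes. The share of all genes 2-fold or more lower on the old array ranged from 7.68% to 13.3%, and higher from 12.5% to 18.7%. Hmgcs1 and Elovl6 passed 2-fold without scaling, under trimmed means, under quantile normalization and over all probe sets, and Hmgcs1 also with loess. The first 3 of these put the median of all genes at -0.09 to -0.08, beside 0.03. With the higher floor, Cyp51 (-0.94), Mvd (-0.10) and Pmvk (-0.68) were within 2-fold, because signals under it were set to it, and 4 genes (Lss, Mvk, Tm7sf2 and Fads2) had no value. Sqle (-1.89), Scd1 (1.33) and Elovl6 (-0.11) were also nearer 0 with it, and over all probe sets Scd1 had 1.18, Sc5d -1.09 and Acly -0.62. Fads1 was within 2-fold over all its probe sets. No gene past 2-fold changed sign under these alternatives. Fads2, near 0, changed sign with loess and over all probe sets. No paired analysis was possible because each group had 1 array, and leaving out a replicate was not possible for the same reason.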
